A study of Mus musculus with 2 samples.

Results

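The piRNA pathway genes described here are 10 germline genes, Piwil1, Piwil2, Piwil4, Tdrd1, Tdrd9, Tdrd12, Ddx4, Mov10l1, Asz1 and Mael, out of 49997 genes in the RefSeq table of the mouse build mm10 (GRCm38.p6). They were chosen by name, as proteins that make piRNAs or act with them. The rule uses no methylation value, but the choice was made with earlier results of these data known. CpG methylation had been measured by bisulfite sequencing in 2 mouse haploid embryonic stem cell (ES cell) lines, with 1 library per line. The A129-2 cells are of 129Sv background, and the AOS-14 cells of C57BL/6 background. Both lines came from AG-haploid embryos, taken here as androgenetic, with a single chromosome set from sperm; they were obtained by cell sorting and grown in ES cell medium. Line and strain cannot be told apart in this design, the tests compare the reads of 2 libraries, and no difference has a replicate check.

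piRNAs are small RNAs of germ cells that guide PIWI proteins to transposon transcripts, which are cut, and to transposon copies in the nucleus, where DNA methylation is then laid down in the male germline. Most of these genes are silent in somatic cells, and several of them carry CpG-rich promoters that are methylated outside the germline and lose this methylation in primordial germ cells. In ES cells, E2F-family factors and the MGA and MAX proteins of a variant Polycomb complex bind E2F and E-box motifs at such promoters.

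CpGs were taken from 2 kb outside each gene start to 2 kb outside the gene end, and a CpG was compared if it had 10 or more reads in both libraries. The 10 genes held 534 listed CpGs, and 241 of these could be compared. Their median depth was 70 reads for A129-2 and 102 for AOS-14. Promoter islands, defined as runs of 10 or more listed CpGs with steps of at most 100 bp near the gene start, contained 78 of these CpGs. Gene bodies contained 158, and the remaining 5 lay in the promoter window of Tdrd9, which runs from 1 kb outside to 0.5 kb inside the start. No CpG on the edges of an island, within 1 kb of it, was deep enough in both libraries. Whether a CpG lay in an exon or an intron was not analysed here.

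The 250 bases before the RefSeq transcript start are shown for Mael and Asz1, the pair of islands whose compared CpGs reach upstream of the annotated gene start. The Ddx4 island has 16 compared CpGs before its RefSeq transcript start, which lies inside the annotated gene, and is shown further on by its E-box. Capitals mark the CpGs that were compared, 5 in Mael and 9 in Asz1, and both sequences are RefSeq GRCm38.p6, read 5′ to 3′ along the gene.
Mael chr1:166238745-166238994 (minus strand): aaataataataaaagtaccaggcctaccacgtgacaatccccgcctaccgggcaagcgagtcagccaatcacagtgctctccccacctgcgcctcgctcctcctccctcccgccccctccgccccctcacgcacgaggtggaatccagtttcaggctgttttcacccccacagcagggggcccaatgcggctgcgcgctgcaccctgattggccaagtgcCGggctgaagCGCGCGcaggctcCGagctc
Asz1 chr6:18109062-18109311 (minus strand): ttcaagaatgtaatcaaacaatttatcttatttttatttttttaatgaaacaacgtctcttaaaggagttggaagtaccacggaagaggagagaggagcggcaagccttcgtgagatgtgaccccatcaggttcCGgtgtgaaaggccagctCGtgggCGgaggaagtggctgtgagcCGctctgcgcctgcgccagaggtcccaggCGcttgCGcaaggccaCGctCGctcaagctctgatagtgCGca

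In Mael the 5 compared CpGs fell in the last 29 bases before the start, among 18 CpGs of the 250 bases. In Asz1 they were spread over the last 115 bases, among 15 CpGs. The canonical E-box CACGTG, which reads the same on both strands and holds a CpG at its centre, was present in the 250 bases of 6 of the 9 members with a RefSeq promoter entry. It occurred in 6.02% of all 32851 promoter entries, a share per entry, whereas the member count is per gene over 13 entries. The comparison was not matched for CpG number. The median was 6 CpGs over all entries, and the member entries with an E-box held 8 to 31. The stretches below show 1 E-box per gene in capitals (Piwil1 and Tdrd9 have a second one), as the feature that most of these promoters share. Among these E-boxes, the CpG of Ddx4 alone had enough reads in both lines.
Piwil1 chr5:128736057-128736082 (plus strand): aaccgccaccCACGTGgcagccaatc
Tdrd1 chr19:56826188-56826208 (plus strand): gggctgcgcgCACGTGggagt
Tdrd9 chr12:111971454-111971479 (plus strand): acgaggctccCACGTGcatgcagggc
Ddx4 chr13:112652324-112652349 (minus strand): cgtccgcccgCACGTGcagccgttta
Mov10l1 chr15:88982744-88982763 (plus strand): ccttCACGTGctaaccgcca
Mael chr1:166238952-166238977 (minus strand): ccaggcctacCACGTGacaatccccg

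At the Ddx4 E-box, 5 of 191 reads were methylated in A129-2, a level of 2.62% (exact 95% binomial interval 0.855 to 6.00). In AOS-14 it was 0 of 102 reads (0 to 3.55), and these levels were not distinguishable (Fisher's exact test, Benjamini-Hochberg adjusted p = 0.571). The E2F motif GCGGGAA, searched on both strands, occurred upstream of Ddx4 only, against 3.82% of all promoters, and its CpG was listed but not deep enough. A match describes letters and says nothing of binding. No E-box or E2F match was found in the windows of Asz1, Piwil4 and Tdrd12, and Piwil2 is named only.

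The promoter islands of 4 members had mean levels of 5.43% to 17.7%, with differences of at most 1.95 points between the lines, while the gene bodies had less methylation in A129-2. Of the 78 island CpGs, 26 were lower in A129-2 and 50 higher. Of the 158 body CpGs, 132 were lower and 25 higher. Of the 241 together, 163 (67.6%) were lower and 75 higher, where 62.4% of all compared CpGs were lower and 20.3% higher. At a difference of 25 percentage points or more and an adjusted p under 0.05 (Fisher's exact test per CpG, two-sided, Benjamini-Hochberg over 1030368 CpGs), 12 of the 241 CpGs were called lower in A129-2 and none higher. That is 4.98%, against a background of 4.08% of all compared CpGs called lower and 0.0297% called higher, so the count is near what the whole table gives. With no minimum size, 32 CpGs (13.3%) were lower and 1 was higher, against 12.9% and 0.154% of all CpGs. All 12 called CpGs lay in bodies: 9 in Asz1, 2 in Tdrd9 and 1 in Piwil2.

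**Figure D1:**
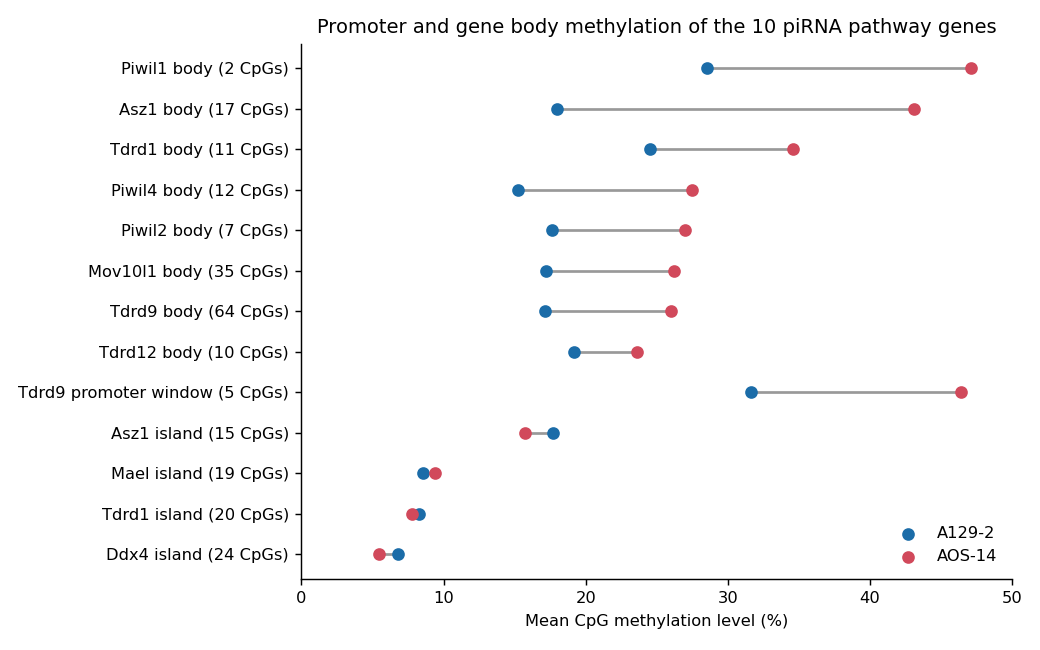
Mean CpG methylation level in percent (x axis) of each promoter island, promoter window and gene body with compared CpGs, one row per region, blue for A129-2 and red for AOS-14. The 4 islands lie under 18% in both lines with the points close together, whereas every body is lower in A129-2, from 19.2% against 23.6% in Tdrd12 to 17.98% against 43.1% in Asz1.

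The 4 members with a testable promoter island were Ddx4, Tdrd1, Mael and Asz1. Their mean levels lay between 6.79% and 17.7% in A129-2 and between 5.43% and 15.7% in AOS-14. The medians of all 12309 tested islands were 2.59% and 3.22%, so each of the 4 was above the median in both lines. The share of all islands at or above the member's mean was 3.39% in A129-2 and 5.004% in AOS-14 for Tdrd1, 4.67% and 11.1% for Ddx4, and 3.20% and 3.73% for Mael. No member island passed the 25-point rule, which called 0.179% of all islands lower in A129-2. In 3 of the 4 the mean was higher in A129-2, while 83.3% of all islands were lower there; with 4 islands this is given as a count only.

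Tdrd1 encodes a Tudor-domain protein that binds the methylated arginines of PIWI proteins in the cytoplasmic granules of fetal male germ cells. Its island covers chr19:56826348-56826552, 177 to 381 bp inside the gene start, with 20 compared CpGs. The mean was 8.27% ± 6.71 (SD over 20 CpGs) in A129-2 and 7.76% ± 6.97 in AOS-14. At these 4410 and 3136 reads the difference of 0.519 points was not distinguishable from 0 (Fisher's exact test on summed reads, adjusted p = 0.484). The highest CpG of both lines was the first one, 177 bp inside the start, with 13 of 59 reads methylated (22.0%) in A129-2 and 9 of 37 (24.3%) in AOS-14. A CpG 297 bp inside had no methylated read among 112 and 88. No single CpG of this island passed the test. The largest difference downward was -4.56 points, 318 bp inside, and the largest upward was 4.28 points, 279 bp inside.

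Tdrd9, a Tudor-domain helicase that works with the nuclear PIWI protein in transposon silencing, had no island by the rule of listed CpGs. None of the 8 CpGs in its 250 upstream bases was listed. Its promoter window held 5 compared CpGs, 265 to 347 bp inside the start at chr12:111971753-111971835. The levels in order along the gene were 27.3%, 40.0%, 38.6%, 27.8% and 24.5% in A129-2. In AOS-14 they were 42%, 52.1%, 48.0%, 46.9% and 43.1%, higher at each of the 5. The means were 31.6% and 46.4%, a difference of -14.8 points (Fisher's exact test on 283 and 617 summed reads, adjusted p = 0.000487). Only 0.347% of 14410 tested promoter windows were at or above the Tdrd9 mean in A129-2, and 0.583% in AOS-14. At a 10-point minimum the window counts as lower, as did 4.04% of all windows; the largest difference of a single CpG was -19 points, 311 bp inside the start, with an adjusted p of 0.0490 by Fisher's exact test.

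Ddx4, the germ cell RNA helicase also called Vasa and a marker of the germ lineage, had the most compared CpGs in its island. These 24 compared CpGs lie at chr13:112652190-112652403, 230 to 443 bp inside the annotated gene start and around a RefSeq transcript start at position 112652310. The mean was 6.79% ± 5.46 (SD over 24 CpGs) in A129-2 and 5.43% ± 7.20 in AOS-14. Levels were higher in A129-2 at 19 of the 24 CpGs. The difference was small, 1.35 points, and passed the threshold of the test on 4839 and 3565 summed reads (Fisher's exact test, adjusted p = 0.00793), as did 0.666% of all islands in that direction. On minus-strand reads alone it was 1.99 points with an adjusted p of 0.291 by the same exact test. In such sums a read counts once at each CpG it covers, so p-values of regions can be too small.

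Within the Ddx4 island, 1 CpG passed the test on its own, 257 bp inside the start: 20 of 372 reads (5.38%, interval 3.31 to 8.18) were methylated in A129-2 and 2 of 242 (0.826%, 0.100 to 2.95) in AOS-14 (Fisher's exact test, adjusted p = 0.0260). The largest upward difference, 6.41 points, was 372 bp inside (11.8% against 5.36%), and was not past the threshold. The 4 CpGs inside CCGG, the site that the enzyme MspI cuts, stood above the rest, at 13.8% to 24.5% except for 8.70% at the last one in A129-2, and at 15.2% to 25.9% in AOS-14. That last CpG, with 23 and 27 reads, also had the largest downward difference, -17.2 points. Without these 4 CpGs the island means were 4.88% and 2.48%, a ratio of 1.97, with 17 of 20 CpGs higher in A129-2 (Fisher's exact test, adjusted p = 4.15e-05). Among all islands outside CCGG, 0.767% were higher in A129-2 by that rule.

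Asz1, an ankyrin-repeat protein that holds piRNA factors at the mitochondria of germ cells, had the most methylated of the 4 islands. It covers chr6:18108942-18109176 and spans the gene start, from 119 bp inside to 115 bp outside. The mean over 15 CpGs was 17.7% ± 7.77 (SD) in A129-2 and 15.7% ± 10.8 in AOS-14. Only 0.869% and 2.20% of all islands were at or above these means. The difference of 1.95 points on 477 and 616 reads was not past the threshold (Fisher's exact test, adjusted p = 0.794), and 8 CpGs were higher and 7 lower in A129-2. The size depended on the reads used: it was 5.34 points without CpGs inside CCGG, 6.24 points on plus-strand reads and -1.44 points on minus-strand reads, none past the threshold.

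The CpGs just upstream of the Asz1 start, shown in capitals above, had 10 to 20 reads in A129-2 and 16 to 26 in AOS-14, so single levels are imprecise. At 36 bp outside the start the levels were 30.0% and 33.3%, and at 71 bp outside they were 30.0% and 12%. At 26 bp outside, 3 of 12 reads were methylated in A129-2 (25%, interval 5.49 to 57.2) and 0 of 26 in AOS-14 (0 to 13.2). At 115 bp outside the order was the other way, with 10% in A129-2 and 37.5% in AOS-14. None of these differences passed the test per CpG, and the 4 deepest CpGs outside CCGG, inside the gene, lay between 5.13% and 19.5% in both lines.

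Mael, a factor needed for transposon silencing and for feeding piRNA precursors into processing, had an island of 19 compared CpGs at chr1:166238596-166238773, from 148 bp inside to 29 bp outside the start. The mean was 8.57% ± 5.90 (SD over 19 CpGs) in A129-2 and 9.42% ± 8.08 in AOS-14. The difference of -0.852 points on 904 and 1080 reads was not past the threshold (Fisher's exact test, adjusted p = 0.981). Weighted by reads the levels were 7.96% and 7.87%, so the sign turned with the weighting. In the capitals of the Mael sequence above, the CGCGCG run had levels of 4.48% to 10.1% in A129-2 and 4.42% to 6.31% in AOS-14, while the CpG 29 bp outside the start, which lies in CCGG, had 27.3% and 26.3%. The largest difference was 145 bp inside, with 2 of 42 reads methylated (4.76%) in A129-2 and 7 of 29 (24.1%) in AOS-14, an adjusted p of 0.152 by Fisher's exact test. The largest upward difference was 5.92 points, 120 bp inside.

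**Figure D2:**
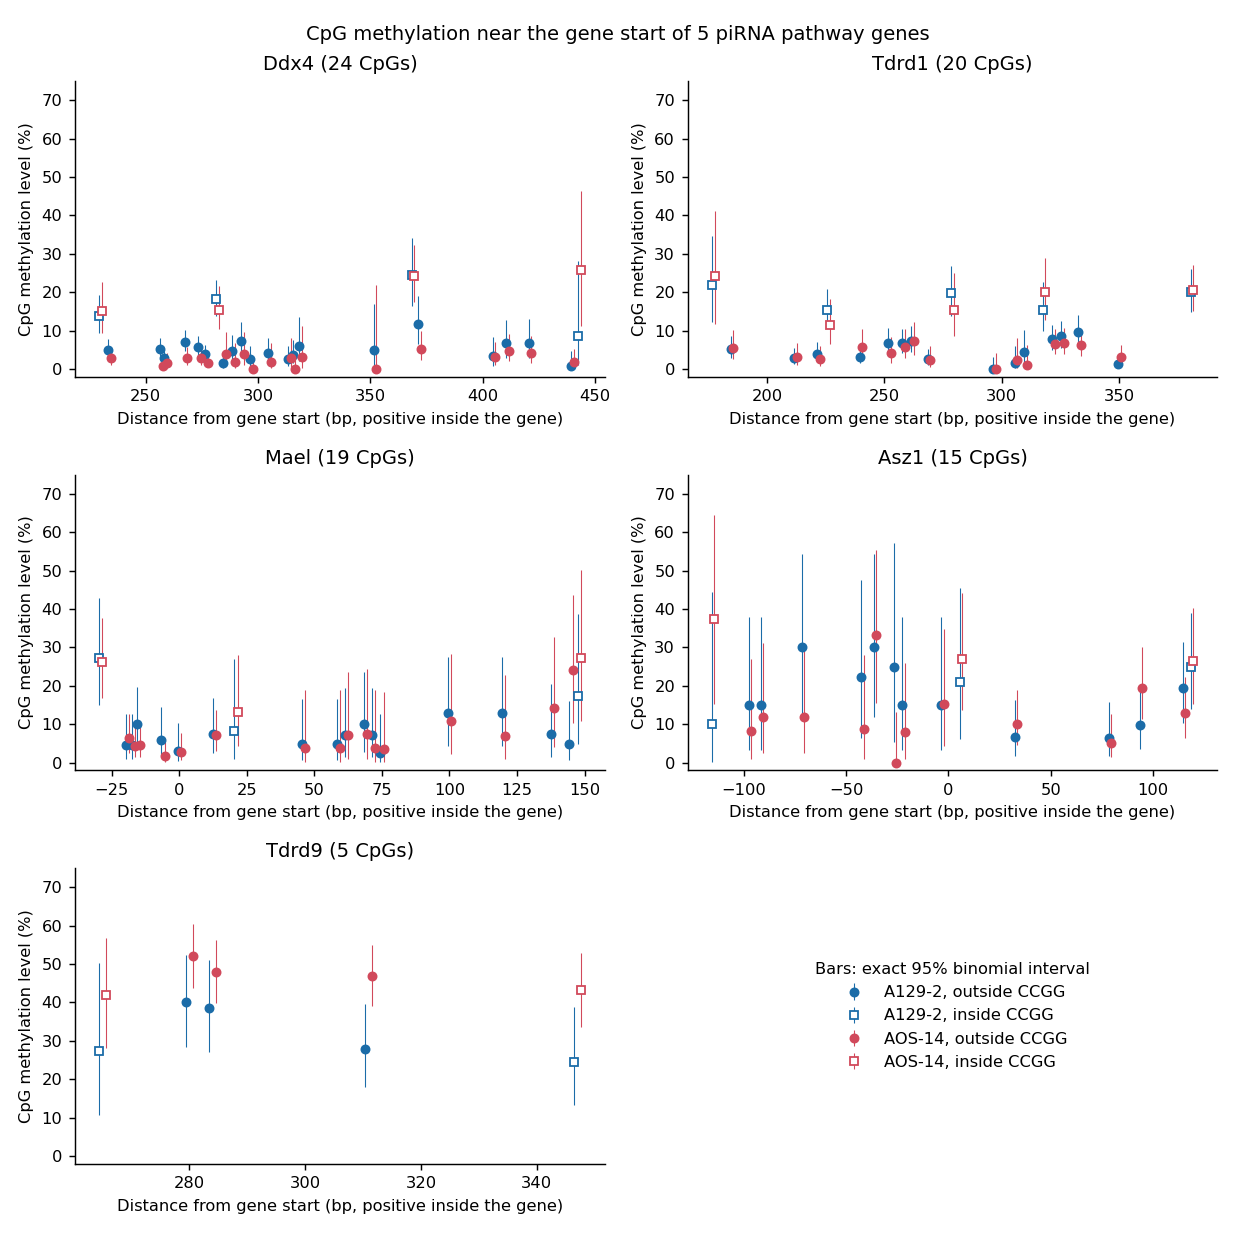
Methylation level in percent (y axis) of each compared CpG against its distance from the gene start in bp, for the 4 islands and the Tdrd9 promoter window, with exact 95% binomial intervals. Squares are CpGs inside CCGG and circles those outside; the intervals of the lines overlap along Ddx4, Tdrd1, Mael and Asz1, apart from the Ddx4 CpG at 257 bp with 5.38% and 0.826%, and all 5 Tdrd9 CpGs are lower in A129-2.

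CpGs inside CCGG had higher mean levels than the other CpGs in each of the 4 islands and in both lines. In Tdrd1 the means were 18.5% inside against 4.85% outside in A129-2, and 18.4% against 4.21% in AOS-14. In Mael they were 17.7% against 6.86%, and 22.2% against 7.02%. In Asz1 the A129-2 levels were close, at 18.7% inside and 17.4% outside, and those of AOS-14 apart, at 30.3% and 12.1%. Over all islands outside CCGG the medians were 0.515% and 0.715%, so the members' CpGs outside CCGG were also above the middle. CCGG sites made up 36.1% of the members' compared CpGs and 33.4% of all, and their part in the island levels was not tested.

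**Figure D3:**
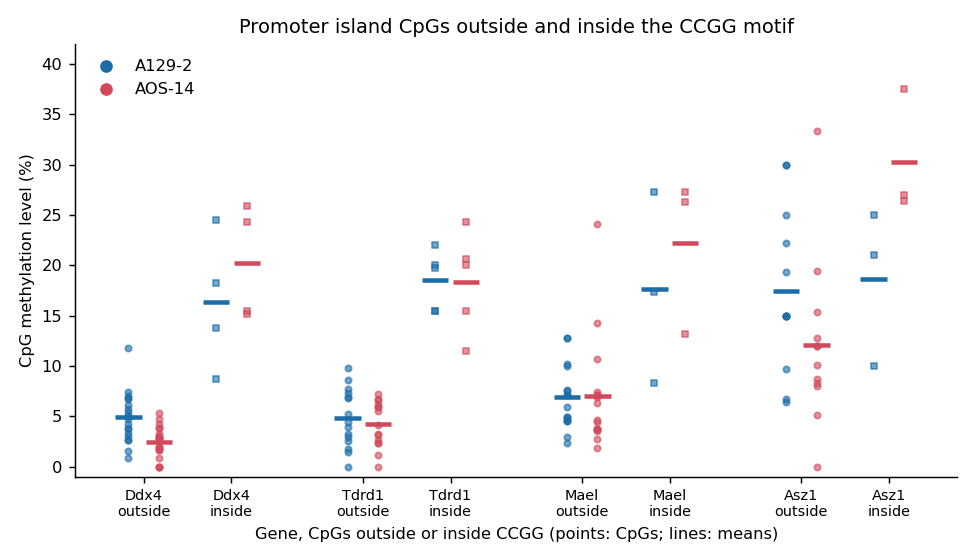
CpG methylation level in percent (y axis) of the island CpGs of Ddx4, Tdrd1, Mael and Asz1, split into those outside and those inside CCGG; points are CpGs and lines are means. In Ddx4 the CpGs inside CCGG average 16.3% in A129-2 and 20.2% in AOS-14, against 4.88% and 2.48% outside.

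The promoter windows of Piwil1, Piwil4, Tdrd12 and Mov10l1 held no compared CpG, and the start of Piwil2 was not resolved. For these 5 members the data describe gene bodies alone, which for Piwil2 means all CpGs between the gene ends. Of the members' 250-base sequences, those of Piwil1, Tdrd9, Tdrd12 and Mov10l1 contain no CCGG, a motif present in 47.1% of all promoters, and no CpG in them was listed. The sequence before the first Piwil4 start does contain 1 CCGG and 10 CpGs, and none of its CpGs was listed either. The methylation of these stretches was not analysed here.

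In the 7 members with 5 or more compared body CpGs, mean levels were 15.2% to 24.5% in A129-2 and 23.6% to 43.1% in AOS-14. With no minimum size, all 7 passed Fisher's exact test on summed reads (adjusted p under 0.05) with the lower level in A129-2, as did 85.6% of 14539 gene bodies. Their median difference was -9.34 points, beside -7.91 points over all bodies. At 10 points or more, Asz1, Piwil4 and Tdrd1 were lower, 3 of 7, against 37.6% of all bodies. At 25 points Asz1 alone was called, against 1.67%. Grouping body CpGs by gaps over 500 bp gave 34 groups in the 8 members with body CpGs, and 31 of them had a lower mean in A129-2. Taken per gene and not per group, 96.5% of all tested bodies had a lower mean there.

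Among the PIWI genes, Piwil4 encodes the nuclear PIWI protein that directs methylation of transposons in fetal male germ cells. Its 12 body CpGs were all lower in A129-2, with means of 15.2% ± 6.46 and 27.5% ± 6.85 (SD over 12 CpGs). A total of 10 of its CpGs form 1 group near the gene end, at chr9:14703137-14703354, with 14.3% and 26.1%, and the other 2 averaged 19.8% and 34.6%. The highest CpG of A129-2 reached 26.3%, 37405 bp from the start, and that of AOS-14 38.4%, 34149 bp from it. Differences of single CpGs ran from -2.12 to -16.4 points, and the gene body difference was -12.3 points (Fisher's exact test, adjusted p = 2.37e-15).

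Piwil2 encodes the cytoplasmic PIWI protein that cuts transposon transcripts and amplifies piRNAs. Its 7 body CpGs averaged 17.7% ± 13.3 and 27.0% ± 20.3, and 5 of them were lower in A129-2. The called CpG at chr14:70388175 had 41 of 163 reads methylated (25.2%, interval 18.7 to 32.5) in A129-2 and 116 of 209 (55.5%, 48.5 to 62.4) in AOS-14. That is a difference of -30.3 points (Fisher's exact test, adjusted p = 1.97e-07). The highest CpG in A129-2 was position 70374262, with 36.0% beside 42.9% in AOS-14. A group of 3 CpGs near position 70429420 was low in both lines, at 11.8% and 8.63%, and held the largest upward difference, 10 points on 10 and 25 reads. The mean difference of -9.34 points (adjusted p = 3.04e-10 by the exact test) was -0.468 points with CpGs of 5 or more reads admitted, -14.95 points with 20 or more reads required and -16.8 points weighted by reads.

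Piwil1 encodes the PIWI protein of meiotic and postmeiotic male germ cells. It had 2 compared CpGs, 14 bp apart at chr5:128745461-128745475, too few for a region test. The first had 21 of 91 reads methylated (23.1%) in A129-2 and 25 of 72 (34.7%) in AOS-14, and the second 16 of 47 (34.0%) and 25 of 42 (59.5%). Both were lower in A129-2 and neither passed the test per CpG (Fisher's exact test, adjusted p = 0.451 and 0.122).

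Among the Tudor-domain genes, Tdrd9 had the most body CpGs, 64, in 10 groups. Their means were 17.2% ± 15.1 and 26.0% ± 18.1 (SD over 64 CpGs), a difference of -8.84 points (Fisher's exact test, adjusted p = 1.31e-25), and 53 were lower in A129-2. The 2 called CpGs lay 42515 and 74624 bp from the start, with 22.6% against 49.2% and 34.5% against 60.8% (adjusted p = 1.98e-07 and 0.0170 by the exact test). The largest difference was -53.3 points, 50859 bp from the start, with 1 of 10 and 19 of 30 reads methylated, which did not pass.

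The groups of Tdrd9 covered a wide range of levels in both lines. A group of 7 CpGs 49.0 kb from the start averaged 37.8% and 42.1% and held the highest CpG of both lines, at 73.7% and 72.2%. It also held the largest upward difference, 14.7 points on 13 and 22 reads. The largest group, 21 CpGs 89.2 kb from the start, averaged 10.2% and 14.3%. In a group of 7 CpGs 27.2 kb from the start the lines had 16.5% and 16.7%. The widest gap, 20.1% against 48.4%, was in 3 CpGs 50.7 kb from the start with 45 and 94 reads in all.

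Tdrd1 had 11 body CpGs, with means of 24.5% ± 18.7 and 34.6% ± 21.4 and 9 CpGs lower in A129-2. The body difference was -10.04 points (Fisher's exact test on 433 and 690 reads, adjusted p = 9.97e-06). It became -2.90 points with CpGs of 5 or more reads admitted. The highest CpGs were 58.3% in A129-2, 24616 bp from the start, where AOS-14 had 45.45% (the largest upward difference), and 61.5% in AOS-14, 15961 bp from the start. The largest downward difference was -28.8 points, 24598 bp from the start, on 16 and 26 reads. A group of 4 CpGs 28.1 kb from the start was low, at 8.76% and 12.9%.

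Tdrd12, a Tudor-domain partner of PIWI proteins in piRNA amplification, had 10 body CpGs split evenly, 5 lower and 5 higher in A129-2. The means of 19.2% ± 12.6 and 23.6% ± 15.9 differed by -4.44 points. On summed reads the levels were 18.4% and 28.7%, which gave an adjusted p of 1.54e-10 by Fisher's exact test. The 5 lower CpGs were also the 5 with most reads in A129-2. The highest CpGs were 41.5% in A129-2, 55794 bp from the start, and 44.3% in AOS-14, 31937 bp from it. The largest differences were -15.3 points downward, 55693 bp from the start, and 4.92 points upward at the CpG with 41.5%.

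Mov10l1, the RNA helicase that feeds precursor transcripts into piRNA production, had 35 body CpGs in 8 groups. The means were 17.2% ± 11.3 and 26.2% ± 17.1, a difference of -9.02 points (Fisher's exact test, adjusted p = 1.75e-15), and 30 CpGs were lower in A129-2. No CpG was called at 25 points. The highest CpG of both lines, 49910 bp from the start, had 50% on 12 reads and 74.2% on 31, and its group of 6 had the widest gap of the gene, 23.1% against 40.3%. The largest single differences were -30.9 points, 49913 bp from the start, and 6.32 points upward, 37505 bp from it. Ddx4 and Mael had no compared body CpG.

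**Figure D4:**
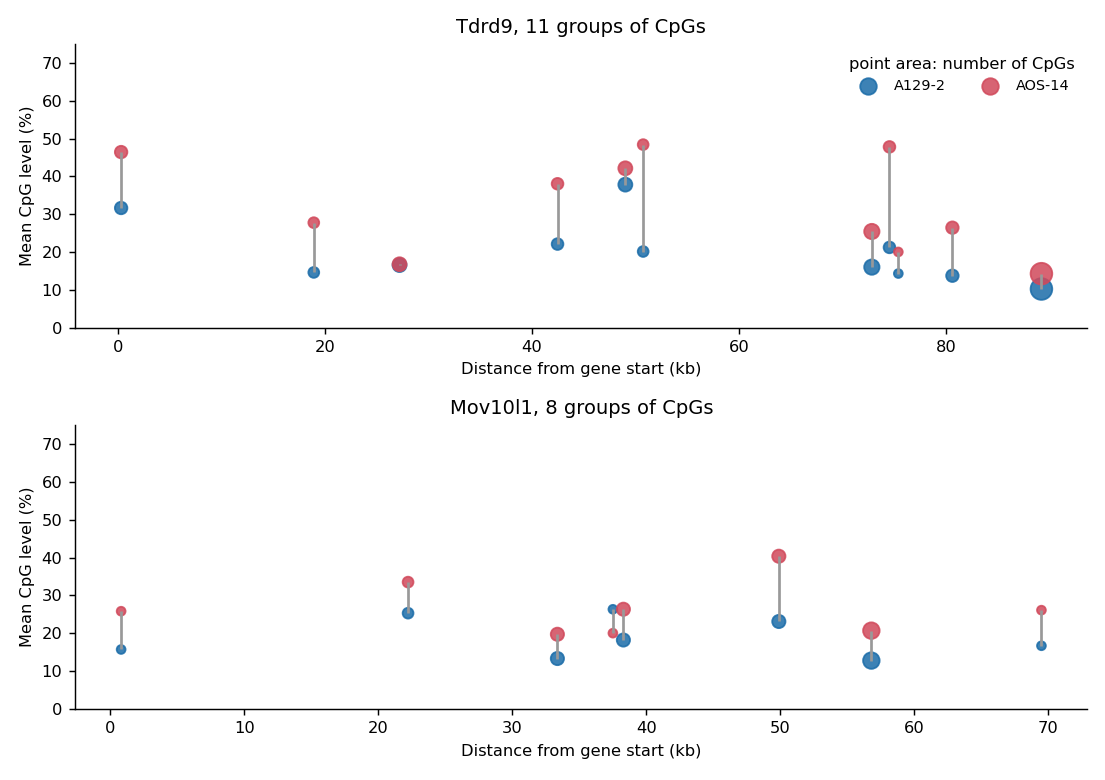
Mean CpG methylation level in percent (y axis) of each group of CpGs along Tdrd9 and Mov10l1 against the distance from the gene start in kb; point area grows with the number of CpGs, and the first Tdrd9 group is the promoter window. In Mov10l1 the red AOS-14 points lie above the blue A129-2 points in all groups except the single CpG at 37.5 kb (26.3% and 20%), and in Tdrd9 the group at 27.2 kb is level at 16.5% and 16.7%.

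The body of Asz1 had the largest difference among the members. Its 17 CpGs averaged 17.98% ± 11.3 in A129-2 and 43.1% ± 20.1 in AOS-14, a difference of -25.1 points (Fisher's exact test on 2410 and 3164 reads, adjusted p = 1.97e-118), and 16 of the 17 were lower in A129-2. A difference this large or larger was seen in 1.66% of gene bodies. The A129-2 mean was reached by 31.2% of gene bodies and the AOS-14 mean by 5.02%.

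Most Asz1 body CpGs lie in 1 group of 13 at chr6:18063306-18063576, 45 kb inside the gene, with means of 19.0% and 45.4% and 8 called CpGs. Over both strands together, the largest of these differences were -42.4, -42.6 and -42.5 points, at 45598, 45511 and 45499 bp from the start. In order, these CpGs had 15.2%, 9.24% and 25.2% in A129-2 and 57.7%, 51.8% and 67.7% in AOS-14. The other 5 called CpGs had 7.51% to 33.8% in A129-2 and 33.1% to 59.9% in AOS-14, 45489 to 45613 bp from the start. The highest CpG of both lines, 45485 bp from the start, had 9 of 18 reads methylated (50%) and 75 of 93 (80.6%), and did not pass the test. At the far end of the group, 45755 bp from the start, the order was reversed, with 14.7% and 7.14% on 34 and 28 reads.

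A second group of 4 Asz1 CpGs, 28 kb inside at chr6:18080459-18080532, averaged 14.7% and 35.5%. Its called CpG, 28602 bp from the start, had 27 of 138 reads methylated (19.6%, interval 13.3 to 27.2) in A129-2 and 88 of 140 (62.9%, 54.3 to 70.9) in AOS-14. That difference of -43.3 points was the widest in the gene (Fisher's exact test, adjusted p = 1.11e-11). Its neighbours 4 and 7 bp nearer the start differed by -15.9 and -7.70 points.

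The strands carried unequal reads in the Asz1 body: 2054 plus-strand and 356 minus-strand reads in A129-2, and 2109 and 1055 in AOS-14. With plus-strand reads alone the difference was -28.0 points over 14 CpGs. With minus-strand reads alone it was -9.42 points over 11 CpGs, 32.1% against 41.5%, which is under the 25-point rule (Fisher's exact test, adjusted p = 3.55e-14). At 45499 bp, minus-strand levels were 83.3% (18 reads) in A129-2 and 80.2% in AOS-14, against plus-strand levels of 20.5% and 61.7%. At 45489 bp, minus-strand levels were 66.7% and 57.4%, higher in A129-2, against 11.5% and 40.7% on the plus strand. At 45511 and 45508 bp the minus strand was lower in A129-2, 16.7% against 53.2% and 33.3% against 50%. The other called CpGs had at most 3 minus-strand reads in A129-2. The part of strand or of read depth per strand in these differences was not tested. Outside CCGG the Asz1 body had 11.98% and 38.97%, with all 10 CpGs lower in A129-2.

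**Figure D5:**
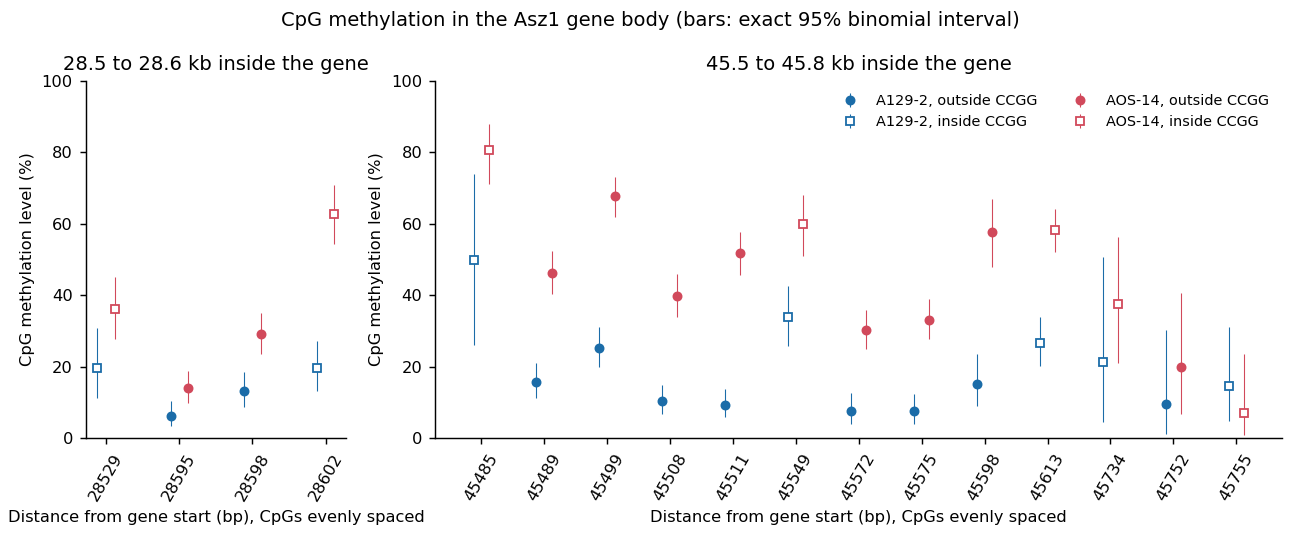
Methylation level in percent (y axis) of the 17 compared CpGs in the Asz1 gene body, evenly spaced and labelled with their distance from the gene start in bp, with exact 95% binomial intervals; squares are inside CCGG. Blue A129-2 points lie below red AOS-14 points at 16 CpGs, by up to 43.3 points, and above at the last one (14.7% and 7.14%).

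A list of 22 other piRNA pathway genes was described in the same way. Of their promoter windows 11 could be tested, with medians of 3.17% and 3.78%, beside 2.88% and 3.59% over all windows and 8.57% and 9.42% over the 5 member windows. The highest in AOS-14 were Pnldc1, which trims piRNA ends (18.5% in A129-2, 34.0% in AOS-14), Tdrkh, its Tudor-domain partner (8.98%, 13.03%), Btbd18, a transcription factor for piRNA precursors (11.5%, 11.4%), and Gpat2, a mitochondrial piRNA factor (7.24%, 6.41%). The Pnldc1 window held 8 CpGs at chr17:12910108-12911314 and meets the Pnldc1 island only at position 12910108. That island, 11 CpGs at chr17:12909934-12910108, had 6.43% and 7.72%, not distinguishable (Fisher's exact test, adjusted p = 0.321). The Pnldc1 window was lower in A129-2 by 10 points or more, as were 4.04% of all windows. With no minimum size, 3 windows passed Fisher's exact test (adjusted p under 0.05) as lower, Pnldc1, Tdrkh and Wdr77. Only 1 passed as higher, Rnf17 (5.71% against 3.78%), where all windows gave 29.8% and 0.784%. Wdr77 and Rnf17 were named after their values were seen. The 13 testable bodies of this list all passed that test with the lower level in A129-2, as did 85.6% of all bodies. A total of 7 were lower by 10 points or more, against 37.6% of all bodies. The medians of the 13 were 14.3% and 25%, beside 14.3% and 23.3% over all bodies.

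The promoter islands of meiotic chromosome genes had medians of 3.74% and 4.01% over 10 islands, and those of 5 other germ cell genes 11.3% and 14.4%. The highest meiotic promoter windows in AOS-14 were Sycp3 (17.5% in A129-2, 29.1% in AOS-14), Sycp1 (12.8%, 12.1%), Hormad1 (12.1%, 12.03%) and Stag3 (5.98%, 8.68%). Those of the other germ cell genes were Dpep3 (35.5%, 55.3%), Tex101 (21.4%, 41.2%), Rhox13 (11.3%, 23.2%) and Taf7l (18.4%, 19.6%). Islands of 7 housekeeping genes had 3.14% and 2.96%, and those of 6 pluripotency genes 2.13% and 3.09%. The highest windows in AOS-14 were Tbx3, Fgf4, Prdm14 and Tfcp2l1 among the pluripotency genes, at 3.44% to 4.04%. Of 8 fibroblast genes, which mark possible feeder cells, Fn1 alone had a testable island, at 6.07% and 4.11%. The medians of the 4 member islands, 8.42% and 8.59%, lay between the housekeeping and the other germ cell lists in both lines. No gene of these lists was called at 25 points.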

How the data were processed

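Per the labels' protocols, about 100 Mb was captured with SureSelect Mouse Methyl-Seq, bisulfite treated and read as pairs of 50 bp. In the series title the method is called RRBS (reduced representation, cut at CCGG), and the labels do not settle which applies. BSMAP and mm10 are named per the submitters' processing notes. The tool version, trimming and duplicate removal were not given in the sources used here. The authors deposited, per the file headers, the methylation level of each CpG as a fraction from 0 to 1, and counts of all reads and of methylated reads on each strand. Fractions equalled methylated over total counts within 0.0005.

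Levels were recomputed in percent from counts of both strands, at CpGs with 10 or more reads in both libraries. The libraries listed 1699405 and 1819756 CpGs (153035567 and 178315194 read calls), and 1030368 were compared, with median reads of 79 and 97. Region levels are means over CpGs, for regions with 5 or more CpGs. Fisher's exact test, two-sided, compared methylated and unmethylated reads per CpG or summed per region, with Benjamini-Hochberg adjustment over all units of one kind. Tests and intervals per CpG cover counting error only, since reads are not independent cultures. A read is counted at each CpG it covers, so the summed reads of a region are not independent. Region tests and intervals can therefore be too narrow, and their p-values too small, even for counting error. Gene starts came from strands in the RefSeq promoter table (27025 genes), otherwise from the CpG-richer end (5295). For 17623 genes, Piwil2 among them, the start was not resolved. The body of such a gene took in all CpGs between its ends, so body values over all genes can include promoter CpGs. All 196379 listed CpGs in RefSeq promoters were CG in the sequence. Named CpGs are those called, those with the highest level in each line and those with the largest difference in each direction; other lists give called genes and the 4 highest windows in AOS-14, except the housekeeping windows, which are not reported here. The members, lists and tests were chosen with earlier results of these data known. Tests were checked on simulated data with independent counts at each CpG. Such data cannot show the effect of reads shared between CpGs or of differences between cultures. Alternatives varied read minimum, size of difference, weighting, strand, CCGG, window, island and edge bounds, CpG number and possible strain variants. The analysis used Python 3.11.15, matplotlib 3.10.9, numba 0.67.0, scipy 1.17.1, pandas 2.3.3 and numpy 2.4.6.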

Additional observations from a re-analysis of the deposited data

How the results depend on the processing

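Calls of member CpGs lower in A129-2 went from 12 to 30 at 10 points, 32 with no minimum and 7 without CCGG. They stayed at 12 with 5 or 20 reads required. Over all compared CpGs the same calls went from 42053 to 121135, 132536 and 22852. The setting without CCGG compared 154 of the 241 member CpGs. With no minimum, 1 member CpG was also called higher. Calls of bodies lower in A129-2 went from 1 to 3 at 10 points and 7 with no minimum. Those of promoter windows went from 0 to 1 and 1. Over all genes the body calls went from 243 to 5460 and 12442, and the window calls from 63 to 582 and 4301. With no minimum the Ddx4 window was also called, as higher in A129-2 (Fisher's exact test, adjusted p = 0.00588). The Asz1 body difference fell under 25 points on minus-strand reads (-9.42). Island differences that turned sign were those of Asz1 on minus-strand reads (-1.44), Mael weighted by reads (0.0942), on plus-strand (0.255) and on minus-strand reads (1.22), and Tdrd1 on plus-strand reads (-0.0464). None of these island differences was past the threshold in any setting run. The cause was not tested, except that a size limit by its construction sets the number of calls. Ddx4 stayed higher in A129-2, by 0.736 to 2.40 points, in the 10 settings run. The body differences of the 7 members stayed negative in every setting that gave a value. No paired analysis was possible because each line has 1 library and the labels give no replicate numbers. Edge differences, strand or CCGG settings for Piwil2, plus-strand reads for Tdrd1 and some settings for Tdrd12 gave no value, as too few CpGs were left. The settings without possible strain variants removed no member CpG. At depths of 10 to 20 reads, as upstream of Asz1, differences of 25 points were not distinguishable.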

Other observations

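The largest group of CpGs in Tdrd9 contains 8 pairs of compared CpGs that lie 206 bp apart, from 112060836 and 112061042 to 112060954 and 112061160 on chromosome 12. The pairs had like levels in several cases: 28.62% and 28.65% in A129-2 at the fifth pair, where AOS-14 had 34.6% and 42.2%, and 11.5% and 11.8% in A129-2 at the seventh, where AOS-14 had 12.8% and 13.5%. At the last pair the A129-2 levels were 8.20% and 31.6%, the second on 19 reads. The sixth pair had 6.06% and 5.94% in A129-2 and 7.09% and 15.3% in AOS-14.

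CpG spacing that recurs elsewhere was counted as runs of 5 neighbouring compared CpGs, each step 60 bp or less. Of 515174 such runs, 73.9% had the same spacing at another place, at a median of 4 other places. In the 13-CpG group of the Asz1 body 5 of 6 runs recurred, at up to 27 other places, and in the Mov10l1 group 56.8 kb from the start 7 of 7 runs did, at a median of 36. The groups of Mov10l1 at 33.4 and 38.3 kb and of Tdrd9 at 72.9 kb had no run found elsewhere. Whether recurrent spacing had a part in any difference was not tested.

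The 293 member CpGs with fewer than 10 reads in a library had pooled levels of 15.2% over 499 reads in A129-2 and 22.2% over 1107 reads in AOS-14. Of them 78 were listed in A129-2 only, 90 in AOS-14 only and 125 in both. The pooled levels therefore cover different sets of CpGs and are not a matched comparison.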
